A study of Mus musculus with 3 samples.

Results

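The genes described here are 10 of the 32285 genes named in the deposited matrices, and they encode the core proteins of cellular iron handling. Tfrc, Trf, Slc11a2 and Hfe act in uptake, Fth1 and Ftl1 in storage, Slc40a1, Cp and Heph in export, and Ireb2 in sensing. They were chosen by their known roles, with earlier results of these data in view, among them the lower Tfrc level of old endothelial cells. That difference is therefore a description here and supports nothing else.

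The retinas came from C57BL/6JRj mice of 3 ages, 3 months (called young), 12 months (adult) and 23 months (old), and no treatment is named for any of them. A short first digestion and a slow spin had left most neurons in the discarded supernatant, and cells with CD31, a surface protein of endothelial cells, were then enriched on magnetic beads. For every age a pool of 4 retinas, from both eyes of a pair of mice, made up 1 library of droplet single-cell RNA sequencing, in which every captured transcript is counted once through its unique molecular identifier (UMI). With 1 library per age no difference between ages has a replicate check, so no p-value is given, and the 95% intervals in parentheses cover nothing but counting error, so neither animals nor preparations enter them.

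The libraries held 2491 to 3243 barcodes, of which 1706 young, 1957 adult and 1697 old cells were used, with a median of 5964 to 6356 UMIs per cell. The adult and old libraries shared 2 barcodes among these cells, and the other pairs shared 0. Cells were grouped by clustering without the iron genes and named from marker genes, and 8 classes had at least 30 cells in every library. The endothelial-like class held 508 young, 503 adult and 494 old cells, and all 10 of its marker genes were detected in each library. Droplets with both endothelial and pericyte markers (310, 250 and 223) were kept as a class of their own, since their median of 13647 to 15030 UMIs was over that of the endothelial-like cells, 5254 to 6528. Doublets that Scrublet, the doublet caller used, did not mark and cells still attached to each other cannot be told apart in this class. The other classes were pericyte-like (170, 129 and 103 cells), smooth muscle-like (38, 38 and 37), Müller glia-like (179, 214 and 207), rod-like (167, 322 and 236), cone-like (70, 102 and 71) and bipolar-like cells (201, 208 and 168). Small clusters, such as that with markers of the retinal pigment epithelium (1, 7 and 53 cells), are given as values only. Levels are in CPM, the UMIs of a gene in every 1000000 UMIs of its class in a library, and are compared between classes or libraries for the same gene, never between genes.

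Iron circulates bound to transferrin, the product of Trf, and the endothelium of the inner blood-retina barrier takes it up through the transferrin receptor Tfrc. Inside the cell, iron leaves endosomes through Slc11a2 (DMT1) and is stored in a shell of ferritin heavy (Fth1) and light (Ftl1) chains, and the surplus leaves through ferroportin (Slc40a1), the known cellular iron exporter, with ceruloplasmin (Cp) or hephaestin (Heph) oxidising it on the way out. When iron is scarce, iron regulatory proteins, among them the product of Ireb2, bind hairpins called iron-responsive elements (IREs). Binding before the coding sequence blocks translation, and binding after it protects the transcript from decay.

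The IRE hairpins are printed as matches to the element through which this control acts, and neither binding nor control was measured here. The pattern searched for was an unpaired C, a stem of 5 base pairs with G-T pairs allowed, and a loop of CAGTGN, on the sense strand of the untranslated regions of GENCODE M21 on GRCm38. It was found in 4 of the 10 members, and in 160 of 21715 protein-coding genes, or 0.737%. Each sequence runs 5′ to 3′ along the transcript, with the unpaired C and the CAGTG of the loop in capitals. The untranslated regions before the coding sequence of the ferritin and ferroportin genes held 1 each.
Fth1, chr19:9982732-9982760, plus strand: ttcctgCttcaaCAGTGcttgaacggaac
Ftl1, chr7:45459779-45459807, minus strand: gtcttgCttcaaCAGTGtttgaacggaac
Slc40a1, chr1:45925465-45925493, minus strand: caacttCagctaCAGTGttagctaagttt
The untranslated region after the coding sequence of Tfrc, all on the plus strand, held 4.
Tfrc, chr16:32631219-32631247: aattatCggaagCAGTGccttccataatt
Tfrc, chr16:32631598-32631626: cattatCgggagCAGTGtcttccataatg
Tfrc, chr16:32631663-32631691: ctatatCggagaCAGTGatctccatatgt
Tfrc, chr16:32631710-32631738: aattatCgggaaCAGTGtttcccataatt
For the other 6 members, no match says only that these letters were not in the annotated untranslated regions. The UMI counts below record transcripts, not the translation that an IRE before the coding sequence controls.

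The endothelial-like cells differed from the other compared classes in a pair of genes, the import receptor Tfrc and the exporter Slc40a1. By the mean over the libraries Tfrc was highest in endothelial-like cells, though in the old library it was level with cone-like and bipolar-like cells. Slc40a1 was, among the compared classes, nearly confined to endothelial-like cells and to the mixed droplets that carry endothelial RNA. Of these classes, Müller glia-like cells, the radial glia that span the retina and wrap its vessels, were highest in ceruloplasmin, transferrin and hephaestin. The retinal pigment epithelium cells, too few to compare, held far more transferrin transcript. Ferritin transcripts were abundant in every class. Under each of 11 settings of the processing, the compared class with the highest mean, the mixed droplets left out, was endothelial for Tfrc and Slc40a1, Müller glia for Cp, Trf, Heph and Ftl1, and bipolar for Ireb2.

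**Figure D1:**
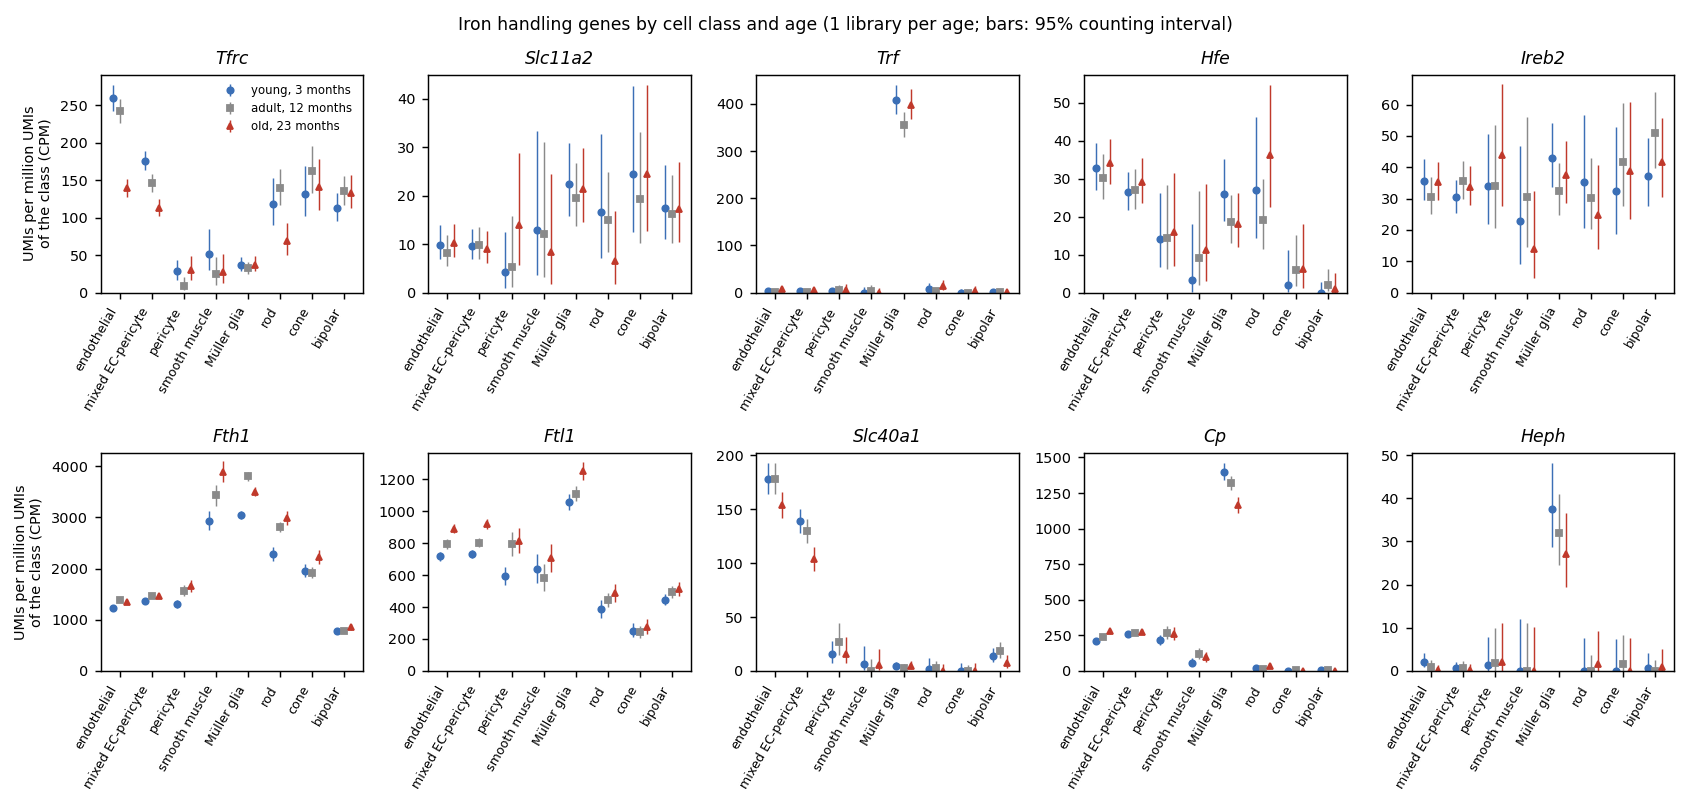
Level of each member (CPM, linear axis from 0) in the 8 compared classes, with 1 point per library and bars for the 95% counting interval; the axes differ between genes. Tfrc in endothelial-like cells stood at 260 and 242 in the young and adult libraries and at 139 in the old one, while Cp, Trf and Heph stood highest in Müller glia-like cells.

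Tfrc (ENSMUSG00000022797, chromosome 16, 32608920 to 32632794, GRCm38) had 890 UMIs in young, 851 in adult and 538 in old endothelial-like cells. In that order these gave 260 CPM (243 to 277), 242 (226 to 259) and 139 (128 to 151). The old library stood below the other two, whose intervals overlapped. The old to young ratio was 0.536 (0.480 to 0.597), the old to adult ratio 0.575 (0.515 to 0.641) and the adult to young ratio 0.932 (0.847 to 1.02). In the mixed droplets Tfrc stood at 176, 146 and 113 CPM, an old to young ratio of 0.644 (0.568 to 0.728), and here the adult library was also below the young one, at 0.828 (0.742 to 0.924). A small cluster with endothelial and erythroid markers (23, 24 and 19 cells) held 34, 84 and 38 UMIs. That made 66.9, 161 and 95.1 CPM, with the young library lowest.

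Of the 7 members with at least 100 UMIs over both libraries, Tfrc was the 1 past 1.5-fold between old and young endothelial-like cells, where 4.90% of 7327 such genes were past it in either direction. Tfrc was also the 1 member of 7 past it between the old and adult libraries (background 3.17%), and 0 of 7 were past it between adult and young (background 1.92%). In the mixed droplets Tfrc was again the 1 of 7 past it between old and young (background 4.01%), but 0 of 7 were between old and adult, where Tfrc was at 0.777 (background 2.50%), and 0 of 7 between adult and young (background 1.74%). Since Tfrc was among the results that chose the members, nothing is read from these counts.

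The lower level was spread over the cells. The median endothelial-like cell had 159, 144 and 0 CPM of Tfrc in young, adult and old order, and the upper quartile was 369, 382 and 181. To set aside the higher depth of old cells, each cell was thinned to 2000 UMIs, which left out 41 young, 68 adult and 40 old cells. At that depth 164 of 467 young cells had a Tfrc UMI (35.1%, exact Clopper-Pearson interval 30.8 to 39.6), 148 of 435 adult cells (34.0%, 29.6 to 38.7) and 89 of 454 old cells (19.6%, 16.05 to 23.6). Unthinned, the shares were 60.8, 55.9 and 44.9% at median depths of 5309, 5254 and 6528 UMIs. In pericyte-like cells, the compared class with the lowest mean Tfrc level, the unthinned shares were 6.47, 3.88 and 11.7% at median depths of 4026, 3994 and 4674. Barcodes under 500 genes, taken as the free RNA of each suspension, held 12.7, 24.7 and 16.7 CPM of Tfrc, well under the endothelial-like levels.

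**Figure D2:**
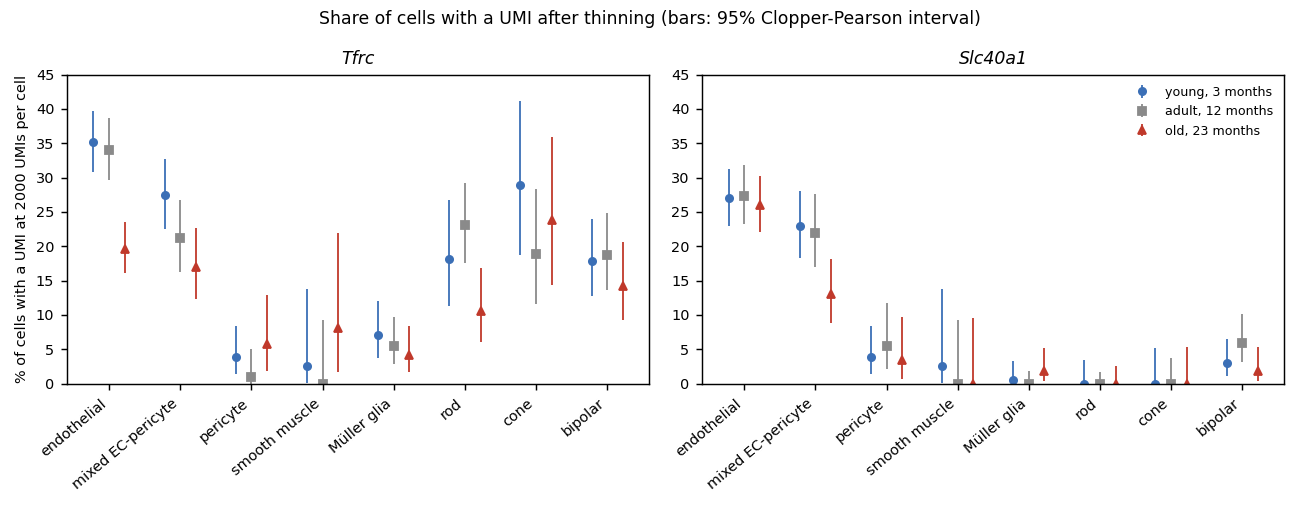
Percentage of cells with at least 1 UMI of Tfrc (left) and Slc40a1 (right) after thinning each cell to 2000 UMIs, by class and library, with exact 95% Clopper-Pearson bars. For Tfrc the old endothelial-like cells (19.6%) sit below the young (35.1%) and adult (34.0%) ones, while for Slc40a1 the 3 libraries sit between 26.0 and 27.4%.

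Endothelial-like cells were split further at a finer clustering, and the clusters are called by their leading genes. In the cluster led by Cxcl12, Vwa1 and Rgcc, the last a capillary marker, Tfrc stood at 296, 245 and 156 CPM in the young, adult and old libraries. In the cluster led by Gkn3 and Sema3g, which are arterial markers, it stood at 185, 149 and 72.3 CPM. In the cluster led by Cxcl10, Cyp2e1 and Slc38a5 it stood at 295, 307 and 182 CPM. The old library was lowest in each, with old to young ratios of 0.528 (0.429 to 0.646), 0.392 (0.304 to 0.501) and 0.615 (0.517 to 0.731). In the last cluster, which had fewer UMIs per cell and was led by Fam71a, Gm26917 and Neat1, the ratio was 0.822 (0.572 to 1.18) on 63 and 65 UMIs, so a difference was not detectable at this depth. Tfrc was lowest in the arterial-marker cluster at every age.

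The makeup of the endothelial-like class differed between the libraries, by an amount that depended on the clustering. At the coarser clustering the arterial-marker cluster held 9.25, 11.9 and 16.4% of the class in young, adult and old order. At the finer clustering it held 24.8, 24.3 and 29.0%. With each library set to the cluster makeup of the young one, the old to young ratio of Tfrc was 0.571 with 3 clusters and 0.550 with 4. Markers of other cell types also moved within the class: the summed Müller glia markers (9 of 9 detected in each library) stood at 1141, 1375 and 1639 CPM, the pericyte markers (8 of 8) at 2020, 2057 and 1350, and the erythroid markers (5 of 6) at 528, 196 and 1315. Without the cells that took over 1% of their UMIs from markers of other classes the ratio was 0.552.

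**Figure D3:**
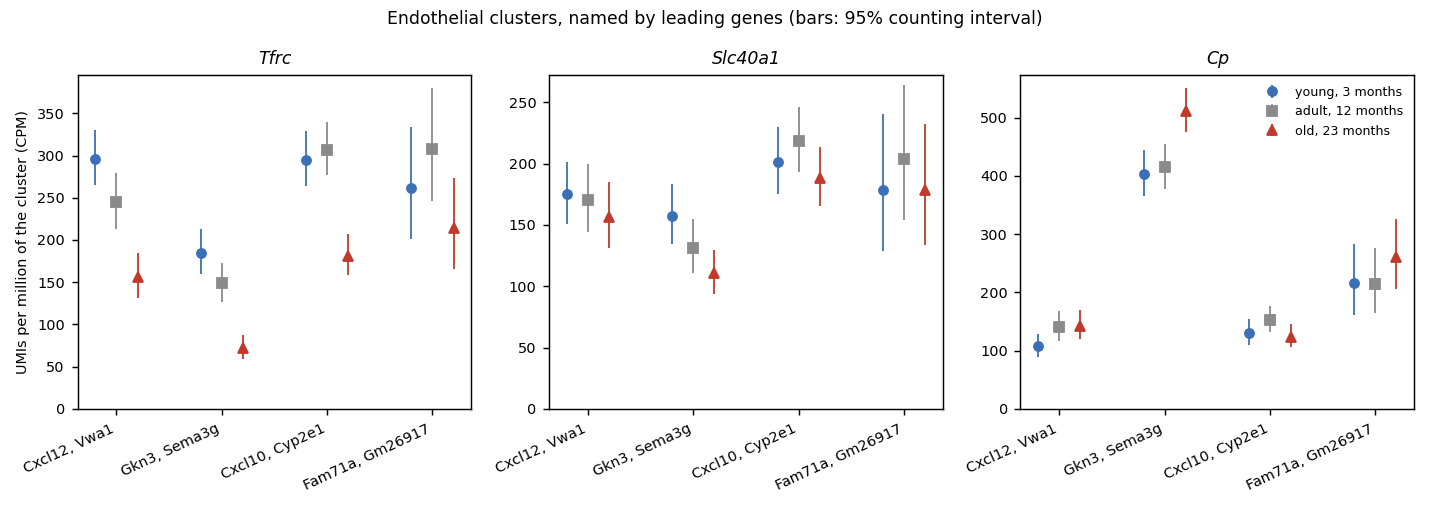
Level (CPM, linear axis from 0) of Tfrc, Slc40a1 and Cp in the 4 endothelial clusters of the finer clustering, with 1 point per library and 95% counting bars; clusters are labelled by leading genes. Tfrc in the old library was lowest in each cluster, although the intervals overlapped in the Fam71a cluster, and Cp was highest in the Gkn3 cluster, at 403, 415 and 512.

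Among neurons, Tfrc stood at 132, 163 and 141 CPM in cone-like cells and at 113, 136 and 134 in bipolar-like cells, so that the intervals of the 3 libraries overlapped in both. In the young and adult libraries the endothelial-like level was above that of every other compared class. In the old library it was level with cones (141, 110 to 179) and bipolar cells (134, 113 to 157), both within the counting error of the endothelial-like 139 (128 to 151). The small cluster with amacrine and horizontal cell markers, which is not among the compared classes, held 154, 226 and 267 CPM on 15, 24 and 38 UMIs. Young cone-like cells also held 15057 CPM of erythroid markers, against 31.3 and 22.5 in the adult and old libraries. Without the cells that carried markers of other classes the old to young ratio of cone Tfrc was 1.03 in place of 1.07, and with the stricter limits on genes and mitochondrial UMIs it was 2.01. Those limits allowed at most 10% mitochondrial UMIs. The cone-like medians were 11.5, 11.7 and 12.1%, so most cone-like cells were left out. Rod-like cells had 57, 139 and 42 UMIs, or 118 CPM (89.6 to 153), 139 (117 to 165) and 68.9 (49.7 to 93.1), with the old library lowest. The old to adult ratio in rods was 0.494 (0.341 to 0.702), and the old to young ratio was 0.582 (0.381 to 0.883) on 99 UMIs, under the minimum of 100 for a count. Rod-like cells of the old library also differed in other content, with 1240 CPM of Müller glia markers against 839 in the young and 515 in the adult library, and 54866 CPM of rod markers against 58902 and 61032. The share of their UMIs estimated as free RNA was 34.7% in the old library against 18.7 and 13.4%. Over 9 settings, which included the subtraction of free RNA and leaving out cells with markers of other classes, the rod old to adult ratio lay between 0.394 and 0.561 and the old to young ratio between 0.473 and 0.637.

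Tfrc was past 1.5-fold between the old and adult libraries as 1 of the 3 members with enough UMIs in rods (background 5.0%), and 0 of 2 were past it between old and young (background 4.51%) and 0 of 3 between adult and young (background 6.95%). In Müller glia-like cells Tfrc was low, with overlapping intervals, at 36.9, 32.4 and 37.5 CPM. Smooth muscle-like and pericyte-like cells had 34 and 40 UMIs of it in all 3 libraries together.

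Within the bipolar-like class Tfrc was uneven. The cluster led by Pcp2, Prkca and Trpm1, with the rod bipolar markers, had 60.01, 72.2 and 94.1 CPM in the young, adult and old libraries. The cluster led by Lrp1b, Kcnb2 and Reln had 239, 221 and 249 CPM, higher in each library, on 29 to 49 UMIs.

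Slc40a1 (ENSMUSG00000025993, chromosome 1, 45908068 to 45926523) had 610, 626 and 594 UMIs in young, adult and old endothelial-like cells, which made 178 CPM (164 to 193), 178 (164 to 193) and 154 (142 to 166). The old to young ratio was 0.863 (0.769 to 0.967), a smaller difference than that of Tfrc, and it was 1.015 after thinning each cell to 2000 UMIs. At that depth 27.0, 27.4 and 26.0% of cells had a UMI, so the direction in endothelial-like cells depended on how depth was treated. In the mixed droplets it stood at 139, 129 and 104 CPM, with an old to young ratio of 0.745 (0.652 to 0.851).

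Outside vessels Slc40a1 was scarce. Rod-like cells held 1, 3 and 0 UMIs, and 3 UMIs would have been 4.92 CPM in the old library. Cone-like cells held 0 in every library, where 3 UMIs would have been 4.47 to 6.14 CPM, and Müller glia-like cells held 7, 5 and 7 UMIs. Unthinned, 53.9, 51.9 and 52.8% of endothelial-like cells had a UMI, against 0.599 and 0.932% of young and adult rod-like cells at median depths of 2283 and 2426. Bipolar-like cells held 18, 26 and 8 UMIs (13.7, 18.4 and 7.27 CPM), and none of them lay in the Pcp2 cluster, whose 87, 81 and 72 cells held 0 in each library. With the stricter limits on genes and mitochondrial UMIs the bipolar mean over the libraries was 28.9 CPM in place of 13.1. Those limits left out most bipolar-like cells, whose median mitochondrial shares were 11.2, 12.1 and 10.6%. Pericyte-like cells stood at 15.6, 27.0 and 15.96 CPM on 8 to 15 UMIs. Their summed endothelial markers stood at 1166, 1240 and 1447 CPM. The mean over the libraries was 19.5 CPM, 20.1 without the cells that carried markers of other classes and 20.8 with free RNA subtracted, but 96.9 when each cell was classed by its own markers.

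The ferroxidase genes had another pattern. Cp (ENSMUSG00000003617, chromosome 3, 19957054 to 20009145) gave 1401 CPM (1344 to 1459), 1319 (1268 to 1371) and 1166 (1113 to 1221) in young, adult and old Müller glia-like cells. The libraries were ordered by age without overlap of young and old, at an old to young ratio of 0.832 (0.782 to 0.886). With free RNA subtracted that ratio was 0.855, but the adult to young ratio turned from 0.941 to 1.05, and the order by age was lost. In endothelial-like cells the order was the opposite, with 212 CPM (197 to 228), 237 (221 to 253) and 277 (261 to 295) and a ratio of 1.31 (1.19 to 1.44). The summed Müller glia markers within the endothelial-like class moved in the same order, at 1141, 1375 and 1639 CPM, and the ratio was 1.29 without the cells that took over 1% of their UMIs from markers of other classes. Pericyte-like cells stood at 217, 266 and 261 CPM, close to the endothelial-like and mixed classes (257, 270 and 273 in the latter), while photoreceptors and bipolar cells were at 37.7 CPM or less. The old to young difference between endothelial-like and Müller glia-like cells was not tested, because each is 1 library against 1.

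Cp also differed between endothelial clusters. In the coarser clustering the arterial-marker cluster held 623, 623 and 640 CPM, while the largest cluster held 146, 167 and 180. The old to young ratio was 1.03 (0.886 to 1.19) in the former and 1.23 (1.08 to 1.40) in the latter. At the finer clustering it was 1.33 (1.02 to 1.72) in the Cxcl12 cluster, 1.27 (1.12 to 1.44) in the Gkn3 cluster and 1.21 (0.842 to 1.75) in the Fam71a cluster. In the Cxcl10 cluster it lay below 1, at 0.949 (0.751 to 1.20). With each library at the young cluster makeup the old to young ratio was 1.15 with 3 clusters and 1.21 with 4, and counting the mixed droplets as endothelial made it 1.16.

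Among the compared classes Heph (ENSMUSG00000031209, chromosome X, 96455359 to 96574485) was seen almost only in Müller glia-like cells, on 62, 62 and 42 UMIs or 37.6 CPM (28.8 to 48.1), 31.9 (24.5 to 40.9) and 27.1 (19.6 to 36.7). The intervals overlapped, and the old to young ratio was 0.723 (0.477 to 1.09). Each other compared class held between 0 and 11 UMIs over the 3 libraries. Outside them, over all libraries together, the retinal pigment epithelium cells held 23.4 CPM on 7 UMIs. The small cluster with lens markers held 20.8 CPM on 17 UMIs.

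Trf (ENSMUSG00000032554, chromosome 9, 103204001 to 103230444), the carrier of iron in plasma, stood at 408 CPM (378 to 440), 356 (330 to 383) and 398 (367 to 431) in young, adult and old Müller glia-like cells. The adult library was lowest, at 0.871 of the young (0.782 to 0.970), while old and young overlapped at 0.975 (0.873 to 1.09). Each other compared class held 1 to 52 UMIs over the 3 libraries. In endothelial-like cells the old library had 32 UMIs against 14 and 6, but 22 of the 32 came from 1 cell. The retinal pigment epithelium cells held far more, 10024 CPM in the single young cell, 21272 in 7 adult and 14853 in 53 old cells, and barcodes under 500 genes held 4.23, 46.9 and 143 CPM, in the order of the number of those cells.

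In Müller glia-like cells 0 of 7 members were past 1.5-fold between old and young (background 4.17%) and 0 of 7 between adult and young (background 3.81%). The Cp and Trf values there rested on a large cluster led by Rlbp1 and Aqp4 (146, 180 and 159 cells) and a small one led by Utp14b and Adam23 (33, 34 and 48). The old library was below the young one in both for Cp, at 1116 against 1356 CPM in the large and 1545 against 1822 in the small cluster. For Trf the small cluster stood lower than the large one in each library, at 282, 224 and 229 CPM against 422, 368 and 420. At the finer clustering the large cluster held 132, 159 and 125 cells. An unnamed low-UMI cluster, with the astrocyte markers S100b, Pdgfra and Gfap among its leading genes, held 20, 36 and 45 cells there. How many of these were in the Müller glia-like class was not counted.

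Ferritin transcripts were counted in every class and stood higher in the old than in the young library in each, though by less than 1.5-fold. Fth1 (ENSMUSG00000024661, chromosome 19, 9980598 to 9985098) had old to young ratios from 1.07 (1.03 to 1.11) in the mixed droplets to 1.32 (1.22 to 1.44) in smooth muscle-like cells, with an interval that reached below 1 in bipolar-like cells alone (1.09, 0.996 to 1.19). In smooth muscle-like cells it stood at 2932 CPM (2744 to 3130), 3427 (3230 to 3633) and 3882 (3681 to 4091), in the order of age. The makeup of that class moved in step, with pericyte markers at 9301, 8702 and 4715 CPM and smooth muscle markers at 31327, 36892 and 39371, while pericyte-like cells held 1302, 1562 and 1658 CPM of Fth1; the part of this in the Fth1 value was not tested. After thinning, the ratio of old to young there was 1.10. Müller glia-like cells stood at a like level but in another order, 3047 (2963 to 3132), 3805 (3718 to 3892) and 3500 (3408 to 3595), with the adult library highest. Within that class Fth1 stood at 3344, 4098 and 3916 CPM in the large Rlbp1 cluster and at 269, 653 and 329 in the small Utp14b cluster. In rod-like cells the values were 2282 (2149 to 2421), 2809 (2706 to 2915) and 2982 (2847 to 3123).

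In endothelial-like cells Fth1 stood at 1227 CPM (1190 to 1265), 1380 (1341 to 1419) and 1339 (1302 to 1376), a smaller difference of 1.09 (1.05 to 1.14). The rod markers found in Müller glia-like cells moved in the same order as Fth1 there, at 546, 1557 and 1010 CPM, and their part in the Fth1 value was not tested.

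The barcodes under 500 genes, taken as free RNA, differed between ages in the same direction as ferritin. They held 271, 495 and 1260 CPM of Fth1 and 143, 295 and 587 of Ftl1 in the young, adult and old libraries. These were 523, 883 and 680 barcodes with 708705, 1215321 and 899699 UMIs in all. Whether some of them were low-gene cells was not tested. With free RNA subtracted the old to young ratios of Fth1 and Ftl1 in Müller glia-like cells were 1.04 and 1.03, and the direction turned for Fth1 in cone-like (0.995) and bipolar-like cells (0.942) and for Ftl1 in rod-like (0.840) and cone-like cells (0.880). Thinning turned Ftl1 in rod-like cells (0.983), and in cone-like cells Ftl1 ranged from 0.766 with thinning to 1.95 with the stricter limits, which left out most of those cells. The part of free RNA in the ferritin values was otherwise not tested.

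Ftl1 (ENSMUSG00000050708, chromosome 7, 45457944 to 45459884) was highest of the compared classes in Müller glia-like cells, at 1056 CPM (1007 to 1107), 1110 (1064 to 1158) and 1254 (1199 to 1311). The large Rlbp1 cluster held 1152, 1191 and 1396 CPM, and the small Utp14b cluster 163, 236 and 167. Endothelial-like cells stood at 718 (690 to 747), 795 (766 to 825) and 891 (862 to 922), with no overlap between any libraries and an old to young ratio of 1.24 (1.18 to 1.31). The mixed droplets had the same order, at 732, 803 and 921 CPM and a ratio of 1.26 (1.20 to 1.32). The difference was 1.38 (1.20 to 1.58) in pericyte-like cells and 1.19 (1.11 to 1.27) in Müller glia-like cells. Erythroid markers in pericyte-like cells stood at 19.9, 39.5 and 385 CPM, and without the cells that carried markers of other classes the ratio there was 1.35. In smooth muscle-like and cone-like cells the intervals held 1. The pseudogene Ftl1-ps1, a near copy that can share reads with Ftl1, held 14, 12 and 25 UMIs in endothelial-like cells against 2461, 2796 and 3447 of Ftl1.

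By finer endothelial cluster, Ftl1 stood at old to young ratios of 1.36, 1.25, 1.19 and 1.38 in the 4 clusters and Fth1 at 1.13, 1.12, 1.05 and 1.25, in the order in which the clusters are given above. The intervals of Ftl1 were above 1 in all 4 clusters and those of Fth1 in the first pair only. Slc40a1 was below 1 in 3 clusters (0.894, 0.702 and 0.938), with an interval below 1 in the arterial-marker cluster alone (0.559 to 0.881), and at 1.00 (0.657 to 1.53) in the Fam71a cluster.

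In the remaining classes 0 members were past 1.5-fold. The counts between old and young were 0 of 3 in pericyte-like cells (background 6.5%), 0 of 2 in smooth muscle-like (9.14%), 0 of 3 in cone-like (4.60%) and 0 of 3 in bipolar-like cells (3.67%). Between adult and young they were 0 of 3 (background 4.39%), 0 of 2 (6.0%), 0 of 3 (3.63%) and 0 of 4 (2.55%).

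The other 3 members were low in every class. Hfe (ENSMUSG00000006611, chromosome 13, 23702034 to 23710854), whose product binds the transferrin receptor, stood at 32.7, 30.2 and 34.1 CPM in endothelial-like cells and at 27.0, 19.1 and 36.1 in rod-like cells on 13 to 22 UMIs. Bipolar-like cells held 4 UMIs of it in all. Ireb2 (ENSMUSG00000032293, chromosome 9, 54863789 to 54912530), the iron regulatory protein named above, was the evenest member, with class means between 22.4 and 43.3 CPM. Its endothelial-like values were 35.6, 30.4 and 35.2 CPM, with an old to young ratio of 0.988 (0.768 to 1.27). Slc11a2 (ENSMUSG00000023030, chromosome 15, 100387898 to 100425072) had class means between 7.87 and 22.8 CPM and 34, 29 and 40 UMIs in endothelial-like cells, so differences under about the width of its interval (6.87 to 13.9 CPM in the young library) were not detectable.

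**Figure D4:**
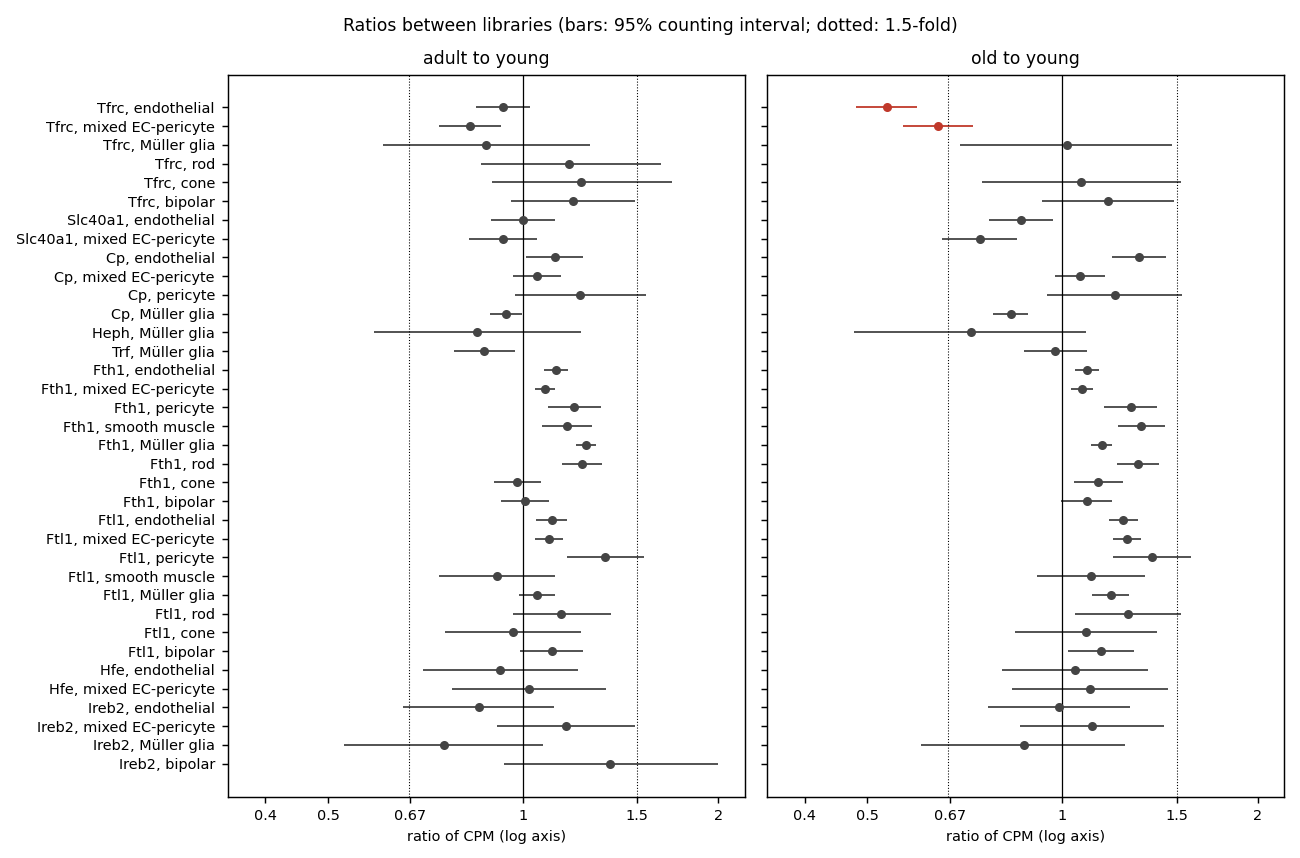
Ratio of CPM (log axis) between the adult and young (left) and the old and young libraries (right) for each member and class with at least 100 UMIs over both libraries; bars are 95% counting intervals, dotted lines mark 1.5-fold, and red marks values past it. Tfrc in endothelial-like cells (0.536) and in the mixed droplets (0.644) lies past the line on the right, and the ferritin ratios in that panel lie between 1.07 and 1.38.

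The transcripts whose level followed that of a member most closely were taken over 8 classes and 3 libraries, or 24 points that share libraries and depth, on the scale of log2(CPM + 10) and among 12725 genes. For Tfrc they were Hcn2 (Pearson r 0.90), then Ppp1r13b, Mcf2l, Gse1 and Dnm3 (each 0.86). For Trf they were Slitrk2, Gm3764, Qrfpr, Lrrc66 and Itgb8 (each 0.99), and for Cp they were Ddah2 and Prdx1 (0.99), Pon2 (0.98), Ctsc and Ccnd3 (each 0.96).

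A further 64 genes of iron handling were read from 6 lists. In endothelial-like cells 35 of them had enough UMIs between old and young. Steap3, an endosomal ferrireductase that works beside Tfrc, had 75, 54 and 56 UMIs (0.661 old to young, 0.459 to 0.948). Smad6, an inhibitor of BMP signalling, had 90, 105 and 170 UMIs (1.67, 1.29 to 2.19). Blvra, a biliverdin reductase of heme breakdown, had 70, 113 and 125 (1.58, 1.17 to 2.15) and was also past 1.5-fold between adult and young (1.57, 1.16 to 2.15), the 1 such gene of 36 where 1.92% of all genes were.

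Over all genes with enough UMIs in this comparison, 3.38% were higher and 1.51% lower past 1.5-fold. For 5 of the lists, the counts between old and young in endothelial-like cells were 1 lower of 2 for uptake, 0 of 3 for storage and chaperoning, 1 higher of 4 for export and hepcidin control, 0 of 5 for sensing and 1 higher of 10 for heme. The list medians were 0.692, 1.06, 1.24, 1.12 and 1.14 in that order, beside 1.02 over all genes. In the sensing list were Aco1, the gene of the other iron regulatory protein (1.15, 0.773 to 1.72), and Fbxl5, whose product marks iron regulatory proteins for degradation (1.12, 0.883 to 1.42). In the mixed droplets the old to young counts were 1 higher and 1 lower of 4 for uptake and 1 higher of 4 for export and hepcidin control. For heme, Blvra's list, they were 0 of 11 (background 4.01%), and between adult and young also 0 of 11 (background 1.74%).

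In endothelial-like cells, 3 of the 7 arterial genes with enough UMIs were higher past 1.5-fold in the old library, Gkn3 (1.53), Gja4 (1.93) and Mgp (1.64), beside the 3.38% of all genes given above. Of 8 capillary genes 0 were past it, and of 5 venous genes 1 was lower, Slc38a5 (0.618), beside 1.51% of all genes. Of 12 barrier transport genes 0 were past it, with a median of 0.897, and of 2 proliferation genes 0. In the mixed droplets 0 of 7 arterial genes, with a median of 0.994, and 0 of 5 venous genes were past it (background 4.01%).

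In Müller glia-like cells, Epas1, the gene of the hypoxia factor HIF-2α, had 419, 277 and 237 UMIs (254, 143 and 153 CPM), with an old to young ratio of 0.604 (0.513 to 0.710) and an adult to young ratio of 0.562 (0.481 to 0.655). Id1, a BMP target, was higher in both, at 136, 256 and 222 CPM (1.63 and 1.88). Urod, a heme synthesis enzyme, was past 1.5-fold in the old library (1.59) and Iscu, a scaffold of iron-sulphur assembly, in the adult one (1.54). Between old and young, 1 of 6 heme, 1 of 3 export and 0 of 7 iron-sulphur genes were higher (all genes 2.55%). Lower were 1 of 2 uptake and 1 of 4 sensing genes (all genes 1.63%). Between adult and young, 0 of 6, 1 of 3 and 1 of 7 were higher (all genes 2.32%). Then 1 of 3 uptake and 1 of 4 sensing genes were lower (all genes 1.49%). Lcn2, which encodes a carrier of iron-binding siderophores, had 424, 50 and 25 UMIs, but 388 of the 424 came from 1 young cell and 8 or 9 cells held it in each library, so its ratio is not given. Of the vessel and transport lists here, 0 of 1 arterial, 1 of 3 capillary (Rgcc, 0.549), 1 of 2 venous (Ptgds, 0.645) and 1 of 9 barrier genes (Abcg2, 0.659) were lower past 1.5-fold in the old library, where 1.63% of all genes were, and 0 were higher.

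In pericyte-like cells Iscu was higher in the old library, at 108, 149 and 182 CPM (1.68, 1.23 to 2.31). It was the 1 gene of its list with enough UMIs there, where 4.08% of all genes were higher past 1.5-fold. Steap4, a ferrireductase gene, was lower in the adult library alone, at 168, 97.1 and 176 CPM (adult to young 0.579, 0.412 to 0.806). It was 1 of 2 uptake genes with enough UMIs, where 1.41% of all genes were lower past 1.5-fold.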

How the data were processed

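Per the labels and the study's methods, the 3 libraries were made with the 10x Genomics 3' v3.1 kit, and the submitters' processing notes name Cell Ranger 6.1.2 and mm10. The authors deposited raw UMI counts per gene and barcode, with no normalization. The members and gene lists were chosen with earlier results of these data known. Barcodes with 500 to 6000 genes and 1 to 20% mitochondrial UMIs were kept, and 40 doublets marked by Scrublet (scanpy 1.11.5) were left out. Cells were integrated and clustered with Seurat 5.3.0 (R 4.3.3; 2000 features without the iron genes, 30 components, resolution 0.5, finer 1.0) into 23 clusters. A class name needed 3 markers, each detected in 20% of cells and at 25% of the top cluster's level, thresholds set after the clusters were seen. Clusters that reached 50% of the marker list of several classes were treated as mixed, except for pericyte with smooth muscle and Müller glia with astrocyte, lists that share expression, where the larger share gave the name.

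Counts were summed per class and library and given as CPM, with exact 95% Poisson intervals, and ratios with exact conditional binomial intervals (scipy 1.17.1). Ratios were counted for genes with at least 100 UMIs over both libraries. Free RNA was taken from barcodes under 500 genes and scaled on rod genes, or on endothelial genes for photoreceptors. Named were all members, list genes past 1.5-fold in endothelial, pericyte or Müller glia-like cells (up to 8 per list), and the 5 transcripts most like Tfrc, Trf and Cp. The ratio script was tested on simulated data. Hfe2 of the lists was found under the name Hjv. Some list genes that met this rule are not reported here.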

Additional observations from a re-analysis of the deposited data

Results flagged for a closer look

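Ceruloplasmin differed in opposite directions in the endothelial-like class as a whole and in Müller glia-like cells. The old to young ratio of Cp was 1.31 (1.19 to 1.44) against 0.832 (0.782 to 0.886), the adult to young ratio 1.12 (1.01 to 1.24) against 0.941 (0.890 to 0.996), and the old to adult ratio 1.17 (1.07 to 1.29) against 0.884 (0.832 to 0.939). At the young cluster makeup the endothelial old to young ratio was 1.15 with 3 clusters and 1.21 with 4, although 1 of those 4, led by Cxcl10, was at 0.949 (0.751 to 1.20). The coarser arterial-marker cluster was at 1.03 (0.886 to 1.19), and the mixed droplets were at 1.06 (0.975 to 1.16). Müller glia markers within the endothelial-like class stood at 1141, 1375 and 1639 CPM in young, adult and old order. With free RNA subtracted the adult to young ratio in Müller glia-like cells was 1.05. The 3 ratios share libraries, and the difference was not tested, with 1 library per age.

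Fth1 between the old and adult libraries stood at 0.920 (0.888 to 0.953) in Müller glia-like cells, against 1.13 (1.05 to 1.23) in smooth muscle-like, 1.06 (1.00 to 1.13) in rod-like and 1.16 (1.07 to 1.26) in cone-like cells. These differences were not tested either.

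Some clusters too small to compare by age held more of a member, over all libraries together, than the highest compared class. In the retinal pigment epithelium cells, mostly from the old library, Trf stood at 15175 CPM (14737 to 15624) against 385 in Müller glia-like cells, Fth1 at 9119 (8779 to 9467) against 3470 and Ftl1 at 5381 (5121 to 5650) against 1136. In the cluster with markers of T cells and microglia, led by S100a9, Lyz2, C1qa and C1qb, Ftl1 stood at 2243 CPM (2104 to 2389). Ireb2 stood at 92.5 CPM (63.3 to 131) in the cluster with amacrine and horizontal cell markers, against 43.6 in bipolar-like cells.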

How the results depend on the processing

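The old to young ratio of Tfrc in endothelial-like cells was 0.478 when each cell was thinned to 2000 UMIs and 0.597 when the mixed droplets were counted as endothelial, and it lay between these under the other alternatives. The number of members past 1.5-fold there was 2 with a minimum of 30 UMIs, the second being Trf, 22 of whose 32 old UMIs came from 1 cell. Over all settings, 51 of 672 alternative ratios, 15 of 86 levels and 1 of 24 counts moved, for ratios beyond the counting interval, for levels beyond the SD over the libraries and for counts beyond 1.5-fold. Counted by result, 35 of 70 ratios, 9 of 10 levels and 1 of 2 counts did so under at least 1 alternative. The class without the low-UMI cluster, the mixed droplets counted as endothelial and the young cluster makeup were chosen after seeing the data.

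The free-RNA estimate was 32.9, 78.7 and 42.5% of UMIs in Müller glia-like cells, so the subtracted values there depend on the rod genes used for scaling. No paired analysis was possible because each age is 1 library. Depth limits Heph, Hfe, Slc11a2 and Ireb2 outside the largest classes. Differences between ages cannot be told apart from differences between libraries, and no count of cells changes that.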

Other observations

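In endothelial-like cells thinned to 2000 UMIs, UMIs of both Tfrc and Slc40a1 were held by 56 of the 467 cells from the young library, 47 of the 435 from the adult and 23 of the 454 from the old. A Tfrc UMI was found in 44.4, 39.5 and 19.5% of cells with a Slc40a1 UMI and in 31.7, 32.0 and 19.6% of the cells without one.

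Slc40a1, scarce outside vessels among the compared classes, was also counted in the cluster with markers of T cells and microglia, with 0 UMIs in 9 young, 16 in 29 adult and 5 in 14 old cells. Among bipolar-like cells the cluster led by Slit2 and Gsg1 held 2, 12 and 4 UMIs in 15, 19 and 12 cells.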
